A study of Homo sapiens with 6 samples.

Results

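PC3 cells given heme for 2 h were compared with untreated PC3 cells, across all genes with enough reads to test. PC3 is a line of human prostate cancer cells that was established from a bone metastasis. The series holds 6 libraries of its RNA, and the comparison used 4 of them: the 2 untreated libraries and the 2 libraries from cells whose medium had held 50 µM heme for 2 h. The remaining 2 libraries, from cells given the same dose for 4 h, entered the model to estimate the spread, and their levels are given beside some results. All groups were grown in RPMI medium with serum and antibiotics, and the labels name no vehicle for the heme and give the controls no treatment of their own. The labels also do not say whether replicates were separate cultures, so each p-value reflects only how far these libraries differ, a spread that may be technical. Of 33514 gene symbols, 16209 had enough counts to be tested.

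Heme is an iron-bearing ring that serves as the working group of hemoglobin, cytochromes and many enzymes, and in free form it promotes oxidation. Cells sense it largely through BACH1, a repressor that leaves its sites on DNA when it binds heme, and they break it down with heme oxygenase 1, the product of HMOX1. The first enzyme of heme synthesis in most tissues, ALAS1, is held low when heme is plentiful. The study's title also links heme to MYC, a growth-promoting transcription factor, and to G-quadruplexes, folded structures of guanine-rich DNA.

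The libraries were close in depth, with between 53129375 and 55537611 reads counted to genes in each of the 6. Epithelial markers were abundant in the 4 compared libraries (KRT8 between 549 and 639 CPM, EPCAM between 277 and 358 CPM, and called lower at 2 h by log2 -0.29), where CPM is the read count relative to library size, scaled by edgeR's TMM factors. KLK3, the gene of prostate-specific antigen, had 0 counts in all 4, and CTNNA1, a catenin gene known to be lost in PC3, stood between 1.28 and 1.79 CPM. The beta-globin gene HBB and the T cell gene CD2 were also at 0. Between 5.87% and 6.88% of reads fell in no annotated gene.

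One of the 2 h libraries stood apart from the other in a property of the transcripts themselves. Over 10420 coding genes with a mean of at least 5 CPM, the median log2 difference from the control mean (with 0.5 CPM added to each value) was compared between the richest and the poorest of 10 equal bins by G and C content. GC-rich genes lay above GC-poor genes by 0.67 in 2 h replicate 1 and by 0.23 in 2 h replicate 2. The same gap was -0.09 and 0.09 in the controls and -0.07 and 0.32 in the 4 h libraries. The plot of level by GC content shows one steep line among 6. Whether heme or library preparation gave this slope was not tested. Counts of family members are therefore given also after each library was corrected for transcript GC content and length. For most groups where leaving out 2 h replicate 1 moves a count by 1.5 times or more, that count is given too.

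**Figure D1:**
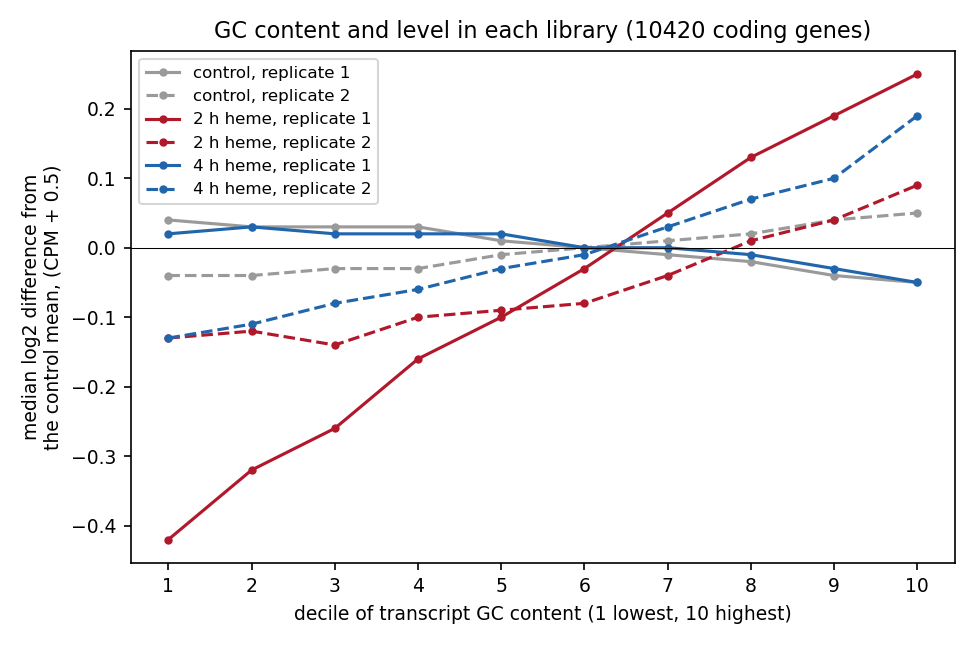
Median log2 difference from the control mean (CPM + 0.5, vertical axis) for 10420 coding genes in 10 bins of transcript GC content (horizontal axis, 1 lowest), with 1 line per library. The line of 2 h replicate 1 climbs from -0.42 to 0.25, that of 2 h replicate 2 from -0.13 to 0.09, and the control lines stay within 0.05 of 0.

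After 2 h of heme, genes of AP-1 and NR4A transcription factors, TNF ligands and MAP kinase feedback were among those that rose, and HMOX1 had the largest rise of a gene above 2 CPM (log2 5.16, SE 0.16). Genes for centromeres, mitochondrial import, RNA polymerases I and III and splicing were among those that fell, and PPARGC1B had the deepest fall (log2 -2.71, SE 0.15). At a Benjamini-Hochberg adjusted p under 0.05 in edgeR's quasi-likelihood test, 5136 of 16209 genes were called (31.7%), 2579 of them higher (15.9%) and 2557 lower (15.8%). In a population of cells, less RNA per cell and fewer cells that express a gene cannot be told apart. Among changes of at least 2-fold the balance leaned to rises, with 822 genes higher (5.07%) and 170 lower (1.05%). Many of these rises were in genes with few reads. Below a mean of 1 CPM lay 331 of the rises and 45 of the falls, and from 1 to 2 CPM 139 and 12. From 100 to 1000 CPM the counts were 18 and 4. Both 2 h libraries lay above both controls for 2578 of the 2579 genes called higher and below them for all 2557 called lower. Over all tested genes the shares were 34.6% above and 33.2% below. The number called was 2321 without control replicate 1 and 2979 without control replicate 2.

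Correction for GC content and length moved the balance toward falls. It called 2277 of 16088 genes higher (14.2%) and 4522 lower (28.1%), so that 33.5% of the called genes were higher, against 50.2% without it. Of the changes of at least 2-fold, 660 were then rises and 245 falls. The median log2 change over all genes was 0.02 without and -0.08 with the correction, which is to be read beside every median below. The corrected median lay below 0 in each of 10 equal bins of GC content, between -0.11 and -0.05. Corrected counts of family members below are to be read beside the corrected shares of all genes, 14.2% higher and 28.1% lower. Without 2 h replicate 1, 11.4% of the genes were called higher and 11.7% lower.

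The share of reads in called genes is a description, since those genes were chosen by their change. Genes called higher took between 9.57% and 9.85% of gene counts of the untreated libraries, against 14.3% to 15.5% at 2 h. Genes called lower went from between 27.1% and 27.7% to between 19.9% and 21.9%. Changes were larger in 2 h replicate 1 than in replicate 2. Among the 822 large rises its median log2 difference from the control mean was 1.07 against 0.88, and 597 of the genes were farther from the controls there. Among the 170 large falls the medians were -1.19 and -0.89.

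**Figure D2:**
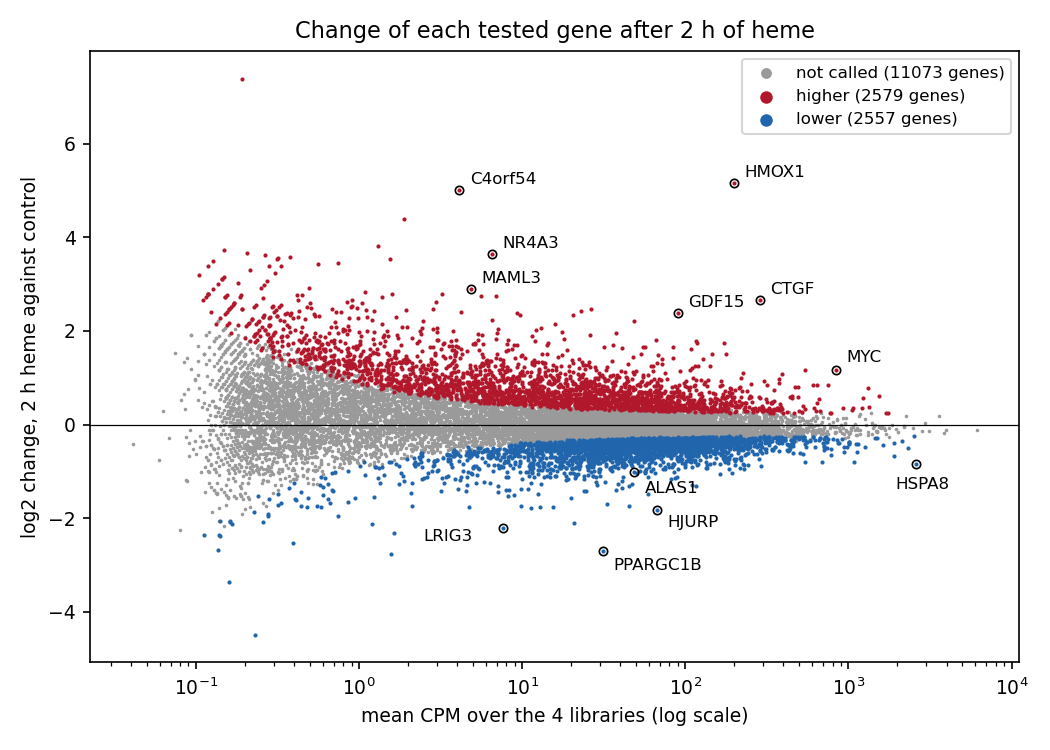
Log2 change at 2 h (vertical axis) against the mean CPM over the 4 libraries (horizontal axis, log scale) for each tested gene, with genes called higher in red, called lower in blue and the others in grey. Large rises fill the left and middle of the plot, HMOX1 stands alone at log2 5.16 among well expressed genes, and falls crowd the right side between 0 and -1.

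HMOX1 was the gene with the largest rise among those with a mean of at least 2 CPM. Its level was 10.4 and 11.4 CPM in the controls, 451 and 328 CPM at 2 h and 382 and 341 CPM at 4 h (35.8-fold at 2 h, edgeR adjusted p = 3.79e-11). Both 2 h libraries lay far above the controls, and the 4 h levels lay between those of the 2 h libraries. HMOX1 held log2 4.93 after GC correction and 4.91 without 2 h replicate 1. ALAS1 stood at 63.8 and 66.6 CPM in the untreated cells, against 35.4 and 29.4 CPM at 2 h (log2 -1.01, SE 0.12), with no overlap, and at 28.6 and 27.8 CPM at 4 h. MYC was at 529 and 510 CPM in the controls, 1247 and 1080 CPM at 2 h and 544 and 553 CPM at 4 h (log2 1.16 at 2 h, SE 0.09, and 1 after GC correction). HPX, the hemopexin gene, rested on 11 and 19 control counts, against 55 and 33 at 2 h (edgeR adjusted p = 0.0285), and was not called without 2 h replicate 1 (edgeR adjusted p = 0.238).

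Most of the other large rises were near the control level again in the 4 h libraries. C4orf54, a little-studied gene, went from 0.212 and 0.278 CPM to 8.66 and 7.33 CPM at 2 h, while the 4 h libraries held 0.271 and 0.148 CPM (32.3-fold at 2 h, log2 5.01, SE 0.29, edgeR adjusted p = 7.50e-08). NR4A3, an orphan nuclear receptor made at once on many stimuli, went from 0.906 and 1.02 CPM to 11.3 and 12.9 CPM (log2 3.65, SE 0.21). Its 4 h levels were 0.93 and 1.22 CPM, 1 of them between the controls and 1 just above. FOSB, a subunit of the AP-1 transcription factor, went from 8.27 and 7.86 CPM to 44.9 CPM in both 2 h libraries (log2 2.48, SE 0.16). The 4 h libraries held 6.74 and 9.59 CPM of it, on either side of the controls.

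ZNF469, a zinc finger gene linked to collagen of the cornea, did not follow that course. It stood at 17.4 and 17.1 CPM in the controls, at 85.3 and 74.5 CPM at 2 h (log2 2.21, SE 0.11) and at 117 and 130 CPM at 4 h. Among the 25 largest rises, HMOX1 and ZNF469 were the only genes whose 4 h levels were not both below both 2 h levels.

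Several large rises concerned secreted and signalling proteins. CTGF, which is laid down in the matrix, rose from 79.5 and 78.0 CPM to 562 and 428 CPM (log2 2.65, SE 0.14) and stood at 85.0 and 68.2 CPM at 4 h. GDF15, a stress hormone, went from 25.9 and 32.5 CPM to 189 and 114 CPM (log2 2.38, SE 0.19), the 2 libraries of the group lying well apart. NEDD9, a scaffold protein of focal adhesions, reached 18.8 and 13.4 CPM from 2.93 and 3.41 CPM (log2 2.34, SE 0.19). RASD1, a small G protein that glucocorticoids also induce, changed by log2 2.06 (SE 0.19), and NFATC4, a calcineurin-dependent transcription factor, by log2 2.16 (SE 0.16).

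Other rises concerned genes that act at the membrane. ABCG1, which exports cholesterol, went from 0.849 and 0.815 CPM to 5.66 and 4.57 CPM (log2 2.62, SE 0.26). SLITRK6, a neuronal adhesion protein, went from 2.70 and 1.89 CPM to 10.2 and 11.3 CPM (log2 2.23, SE 0.20). Further genes of the same rank were TENM4, an adhesion protein of the teneurin family (log2 2.46, SE 0.29), ILDR1, a protein of tricellular junctions (log2 2.07, SE 0.23), and NAV2, a neuron navigator (log2 2.35, SE 0.15). Each of these genes had both 2 h libraries above both controls, as the rule that picked them required.

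The deepest fall was that of PPARGC1B, which encodes PGC-1 beta, a coactivator of mitochondrial and nuclear receptor target genes. It fell from 54.8 and 54.3 CPM to 6.84 and 9.81 CPM, and the 4 h libraries held 57.6 and 63.3 CPM (6.55-fold lower at 2 h, edgeR adjusted p = 7.50e-08). LRIG3, a membrane protein related to the growth factor receptor brake LRIG1, fell from 12.6 and 12.5 CPM to 2.40 and 2.99 CPM (log2 -2.22, SE 0.16). CHD7, a chromatin remodeller, fell from 34.9 and 33.1 CPM to 6.82 and 8.96 CPM (log2 -2.11, SE 0.14). In all 3 genes the 4 h libraries lay above both controls.

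Several cell division genes were also among the large falls. Other genes lay between them in rank, such as ESM1 (log2 -1.78, SE 0.24) and KAZN (log2 -1.76, SE 0.19). HJURP, which loads the centromere histone, fell from 110 and 100 CPM to 24.4 and 34.6 CPM (log2 -1.83, SE 0.14). CCNF, the cyclin that gave the F-box its name, fell from 72.6 and 67.3 CPM to 19.4 and 22.2 CPM (log2 -1.75, SE 0.12). FBXO5, which restrains the anaphase-promoting complex, fell from 53.9 and 47.9 CPM to 12.3 and 19.0 CPM (log2 -1.71, SE 0.16). The helicase PIF1 (log2 -1.77, SE 0.20), the repressor E2F8 (log2 -1.50, SE 0.18) and the kinesin KIF18B (log2 -1.41, SE 0.19) were lower as well. The 4 h levels of CCNF were 65.5 and 79.2 CPM and those of FBXO5 47.1 and 47.0 CPM, near the controls.

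Other genes among the 25 largest falls had varied roles. ADAMTS1, a secreted protease of the matrix, fell from 93.6 and 81.3 CPM to 29.6 and 33.2 CPM (log2 -1.48, SE 0.12). KRT34, a hair keratin, fell from 33.7 and 37.7 CPM to 13.6 and 13.2 CPM (log2 -1.42, SE 0.13). RAB3A, a G protein of vesicle release (log2 -1.44, SE 0.15), GUCY1A1, a subunit of the heme-bearing nitric oxide receptor (log2 -1.43, SE 0.21), and SYBU, a motor adaptor (log2 -1.49, SE 0.14), fell by similar amounts. All 25 largest rises and all 25 largest falls were called without 2 h replicate 1, and those with a known GC content were called also after the GC correction.

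**Figure D3:**
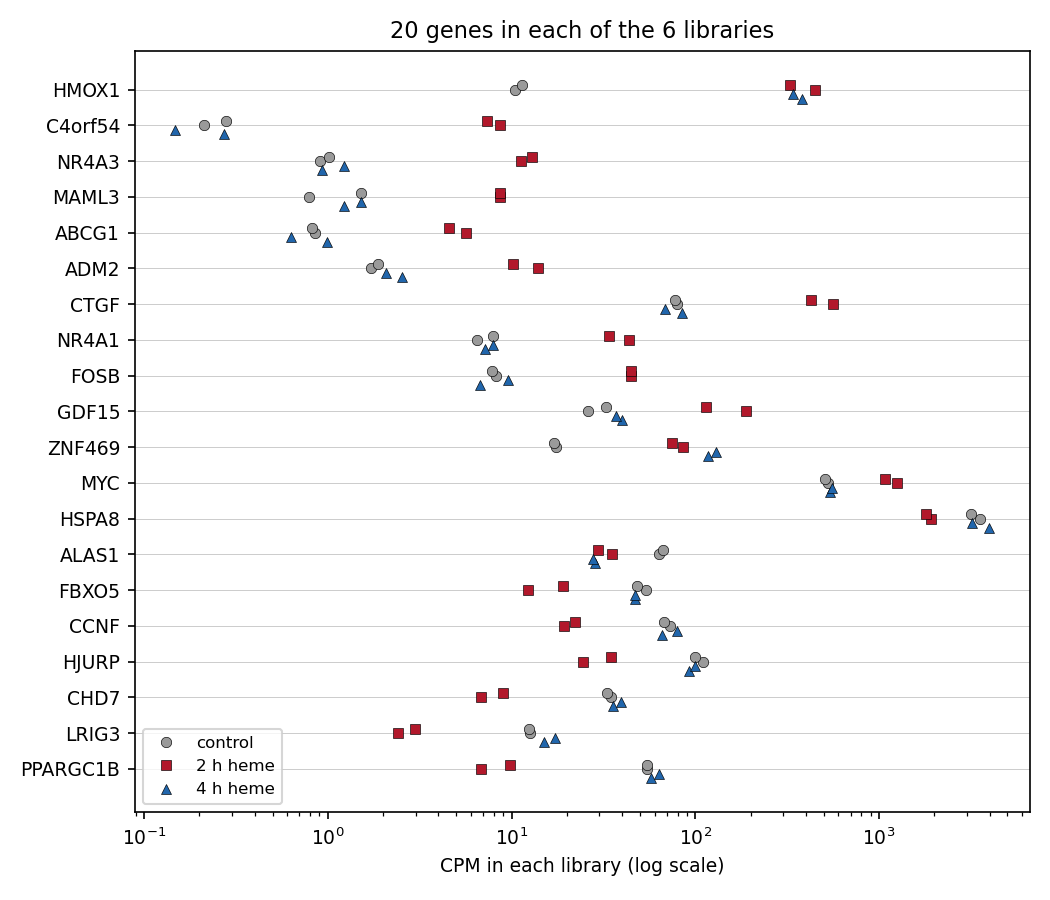
CPM (log scale, horizontal axis) of 20 genes in each of the 6 libraries, with grey circles for controls, red squares for 2 h and blue triangles for 4 h of heme. In every row the red squares lie apart from the circles, and the blue triangles lie close to the circles except in HMOX1, ZNF469 and ALAS1.

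Measured in CPM, which is not scaled for transcript length, the largest gains and losses were, apart from CTGF and HMOX1, in genes outside the 25 largest fold changes of either direction. The 10 largest gains were those of PTGS2, the inducible cyclooxygenase (1031 and 931 CPM, then 1502 and 1849 CPM, log2 0.77, SE 0.11), THBS1, MYC, CYR61, IER3, CTGF, CYP1B1, HMOX1, HBEGF and PLAU. The largest loss was that of HSPA8, the standing HSP70 chaperone, from 3552 and 3161 CPM to 1916 and 1812 CPM (log2 -0.85, SE 0.10). Chaperones made up 5 of the 10 largest losses, with HSP90AA1 (log2 -0.67, SE 0.11), HSP90AB1 (log2 -0.35, SE 0.09), HSPA5 (log2 -0.38, SE 0.09) and HSP90B1 (log2 -0.48, SE 0.10) beside HSPA8. The rest were the chemokine CXCL5, the WNT inhibitor DKK1, the nucleolar proteins NPM1 and NCL, and the mitochondrial messenger MT-CO2. PLAU was not called after the GC correction (edgeR adjusted p = 0.0608), and MT-CO2 was not called without 2 h replicate 1 (edgeR adjusted p = 0.114).

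The windows around the start sites of a few of these genes are shown because they carry the motifs whose shares are counted further on. Each runs from 250 bases before to 50 after a RefSeq start site on GRCh38.p14, 5′ to 3′ on the gene's strand, with the motifs named for each window in capitals, on whichever strand they match. The C4orf54 window (chr4:99657779-99658078, minus strand) has TGAGTCA, the letters AP-1 binds, at -228 to -222 from the start. That RefSeq start lies upstream of the GENCODE gene. The NR4A3 window (chr9:99821635-99821934, plus strand) has a G-quadruplex motif at -133 to -110, directly followed by TGACG, the core of the cAMP response element, so that their capitals run together. Further TGACG copies lie at -83 and -25 and, on the opposite strand, at -91. The FOSB window (chr19:45467746-45468045, plus strand) has TGACG at -60 and a TATA box, TATAAA, at -30.
C4orf54: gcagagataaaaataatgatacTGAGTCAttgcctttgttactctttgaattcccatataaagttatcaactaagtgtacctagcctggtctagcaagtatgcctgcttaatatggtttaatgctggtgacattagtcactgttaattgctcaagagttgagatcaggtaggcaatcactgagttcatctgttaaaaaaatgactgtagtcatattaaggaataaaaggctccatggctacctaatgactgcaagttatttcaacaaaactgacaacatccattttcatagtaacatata
NR4A3: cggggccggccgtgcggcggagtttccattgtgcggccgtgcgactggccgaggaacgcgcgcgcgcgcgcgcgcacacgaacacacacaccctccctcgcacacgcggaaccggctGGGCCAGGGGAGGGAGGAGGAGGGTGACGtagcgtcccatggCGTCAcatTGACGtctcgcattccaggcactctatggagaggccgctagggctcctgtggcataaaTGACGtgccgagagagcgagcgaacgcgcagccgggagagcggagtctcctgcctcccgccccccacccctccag
FOSB: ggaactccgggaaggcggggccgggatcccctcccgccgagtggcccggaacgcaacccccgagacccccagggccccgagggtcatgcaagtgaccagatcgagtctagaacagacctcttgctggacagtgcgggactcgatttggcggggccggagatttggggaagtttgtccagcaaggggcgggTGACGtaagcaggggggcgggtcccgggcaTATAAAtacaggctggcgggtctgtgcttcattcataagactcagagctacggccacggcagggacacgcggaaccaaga

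Windows of 2 genes that fell, CCNF and HJURP, are shown for the CCAAT box. The CCNF window (chr16:2429197-2429496, plus strand) has CCAAT at -250, -239, -210 and -106. The HJURP window (chr2:233854486-233854785, minus strand) has CCAAT at -101 and -72 and, on the opposite strand, at -169 and -139. The copy at -139 touches CCGGAAG, the core that ETS factors bind, at -134 to -128.
CCNF: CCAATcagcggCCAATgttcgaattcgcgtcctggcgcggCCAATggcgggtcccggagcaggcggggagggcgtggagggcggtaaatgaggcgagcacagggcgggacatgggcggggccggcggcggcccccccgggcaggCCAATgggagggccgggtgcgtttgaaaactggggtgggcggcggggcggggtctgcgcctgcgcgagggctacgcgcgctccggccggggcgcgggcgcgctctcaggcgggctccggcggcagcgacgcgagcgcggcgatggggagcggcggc
HJURP: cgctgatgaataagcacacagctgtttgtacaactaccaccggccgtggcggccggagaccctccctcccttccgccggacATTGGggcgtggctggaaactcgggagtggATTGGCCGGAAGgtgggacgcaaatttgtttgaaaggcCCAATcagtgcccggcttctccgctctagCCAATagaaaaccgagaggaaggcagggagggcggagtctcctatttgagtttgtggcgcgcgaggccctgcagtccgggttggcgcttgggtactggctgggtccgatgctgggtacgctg

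Transcription factors of the AP-1 family, which pair through leucine zippers and answer growth and stress signals, were among the groups with the largest share of rises. Of 14 tested, 9 were called higher and 0 lower, with a median log2 of 0.92. After the GC correction 10 were higher and 0 lower. Besides FOSB, JDP2, a repressor that binds JUN (log2 1.82, SE 0.18), and ATF3, a stress factor at 15.1 and 15.6 CPM, then 53.4 and 43.1 CPM (log2 1.65, SE 0.14), also rose.

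Nuclear receptors, which read lipid and hormone ligands, moved largely upward. Of 33 tested, 13 were higher and 3 lower (median log2 0.41), and 14 and 8 after the GC correction. NR4A1, a close relative of NR4A3, went from 6.5 and 7.95 CPM to 43.5 and 34.1 CPM (log2 2.42, SE 0.16). The thyroid hormone receptor THRB went from 3.66 and 3.50 CPM to 8.99 and 9.36 CPM (log2 1.36, SE 0.16). Lower were NR2F2 (log2 -0.58, SE 0.10), NR6A1 (log2 -0.52, SE 0.17) and PPARD (log2 -0.37, SE 0.10). Among 20 coregulators 7 were higher and 5 lower (7 and 10 after the GC correction, 7 and 3 without 2 h replicate 1). NCOA7 (log2 1.59, SE 0.13), CITED2 (log2 0.80, SE 0.11) and NCOA2 (log2 0.95, SE 0.14) rose, while NRIP1, a corepressor (log2 -0.62, SE 0.13), fell with PPARGC1B. Targets of the sterol receptor LXR had 4 of 11 members higher and 0 lower, namely ABCG1, ABCA1 (log2 1.03, SE 0.31), NR1H3 itself (log2 0.51, SE 0.14) and SREBF1 (log2 0.35, SE 0.12). SREBF1 was not called after the GC correction (edgeR adjusted p = 0.921), and without 2 h replicate 1 the list had 2 members higher.

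Signals between cells changed at the level of ligands more than once. TNF ligands had 6 of 9 members higher and 0 lower (median log2 0.78), 5 and 0 after the GC correction, and 3 and 0 without 2 h replicate 1. TNF itself rested on 3 counts in each control and 42 and 38 counts at 2 h (log2 3.57, SE 0.58, edgeR adjusted p = 4.59e-04). TNFSF9, a ligand that stimulates T cells, was at 1.85 and 2.85 CPM in the untreated cells, against 9.48 and 7.14 CPM at 2 h (log2 1.82, SE 0.22). Its receptor TNFRSF9 was called on few reads (log2 2.60, SE 0.72), whereas TNFRSF10A, a death receptor, fell (log2 -0.78, SE 0.11). Of 11 tested CXC and CC chemokines 0 were called higher and 5 lower, under the GC correction and without 2 h replicate 1 as well.

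Ligands of the ERBB receptors split. HBEGF went from 448 and 467 CPM to 793 and 851 CPM (log2 0.84, SE 0.10), and AREG (log2 0.46, SE 0.12), EREG (log2 1.24, SE 0.28) and, on fewer reads, EGF (log2 1.01, SE 0.36) rose with it. TGFA (log2 -0.40, SE 0.09) and EPGN (log2 -0.34, SE 0.12) fell, so that 4 of 8 ligands were higher and 2 lower (3 and 1 without 2 h replicate 1). On the receptor side ERBB2 went from 36.0 and 38.5 CPM to 98.0 and 80.5 CPM (log2 1.26, SE 0.13) and its partner ERBB3 from 14.6 and 15.0 CPM to 40.0 and 31.4 CPM (log2 1.27, SE 0.14). ERRFI1, an inhibitor that these receptors induce, went from 152 and 144 CPM to 298 and 289 CPM (log2 0.99, SE 0.10). LRIG3 and LRIG2 (log2 -0.41, SE 0.12) were lower.

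Feedback genes of the MAP kinase cascade, which are made when ERK is active and then limit it, had 10 of 14 members higher and 0 lower (median log2 0.58). After the GC correction 8 were higher and 1 lower. ETV5, an ETS factor, went from 40.1 and 39.3 CPM to 92.8 and 81.8 CPM (log2 1.14, SE 0.11), and DUSP5, an ERK phosphatase, from 67.2 and 75.2 CPM to 189 and 150 CPM (log2 1.25, SE 0.12). The phosphatase family as a whole was mixed, with 6 of 19 dual-specificity phosphatases higher and 4 lower (4 and 6 after the GC correction, 4 and 4 without 2 h replicate 1). Those lower were DUSP12 (log2 -0.68, SE 0.12), DUSP3 (log2 -0.64, SE 0.10), DUSP11 (log2 -0.64, SE 0.12) and DUSP7 (log2 -0.59, SE 0.10).

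The Notch pathway, in which neighbouring cells signal through a cleaved receptor, had 10 of 25 members higher and 1 lower. After the GC correction the counts were 7 and 7, without 2 h replicate 1 they were 9 and 2, and with the correction the median log2 went from 0.19 to 0.05. Its coactivators MAML3 and MAML2 rose. MAML3 went from 0.791 and 1.52 CPM to 8.60 and 8.61 CPM (log2 2.89, SE 0.26) and MAML2 from 10.8 and 9.89 CPM to 23.8 and 25.2 CPM (log2 1.24, SE 0.13). The receptor NOTCH3 stood at 16.8 and 17.2 CPM, then 69.5 and 41.7 CPM (log2 1.71, SE 0.19, and 1.23 after the GC correction). JAG2, a ligand, was the member that fell (log2 -0.46, SE 0.12).

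Receptors and ligands of guidance and adhesion rose in part. Integrins, which bind the matrix, had 9 of 18 members higher and 0 lower (9 and 1 after the GC correction, 6 and 0 without 2 h replicate 1), with ITGB4 at 264 and 243 CPM in the untreated cells, against 612 and 382 CPM at 2 h (log2 0.97, SE 0.16). Ephrins and EPH receptors had 8 of 15 higher and 0 lower (5 and 1 after the correction, 5 and 0 without 2 h replicate 1), with EFNA5 (log2 1.05, SE 0.13) and EPHB3 (log2 1.27, SE 0.16) among them. Semaphorins and plexins had 11 of 24 higher and 0 lower, but 4 and 4 after the correction and 6 and 0 without 2 h replicate 1, and their transcripts had a median GC content of 59.6%. Angiogenic factors had 9 of 16 higher and 1 lower (8 and 2 after the correction), with ADM2, a peptide of the calcitonin family, at 1.72 and 1.87 CPM, then 13.9 and 10.2 CPM (log2 2.75, SE 0.21). ESM1, an endothelial proteoglycan, was the member that fell (log2 -1.78, SE 0.24).

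**Figure D4:**
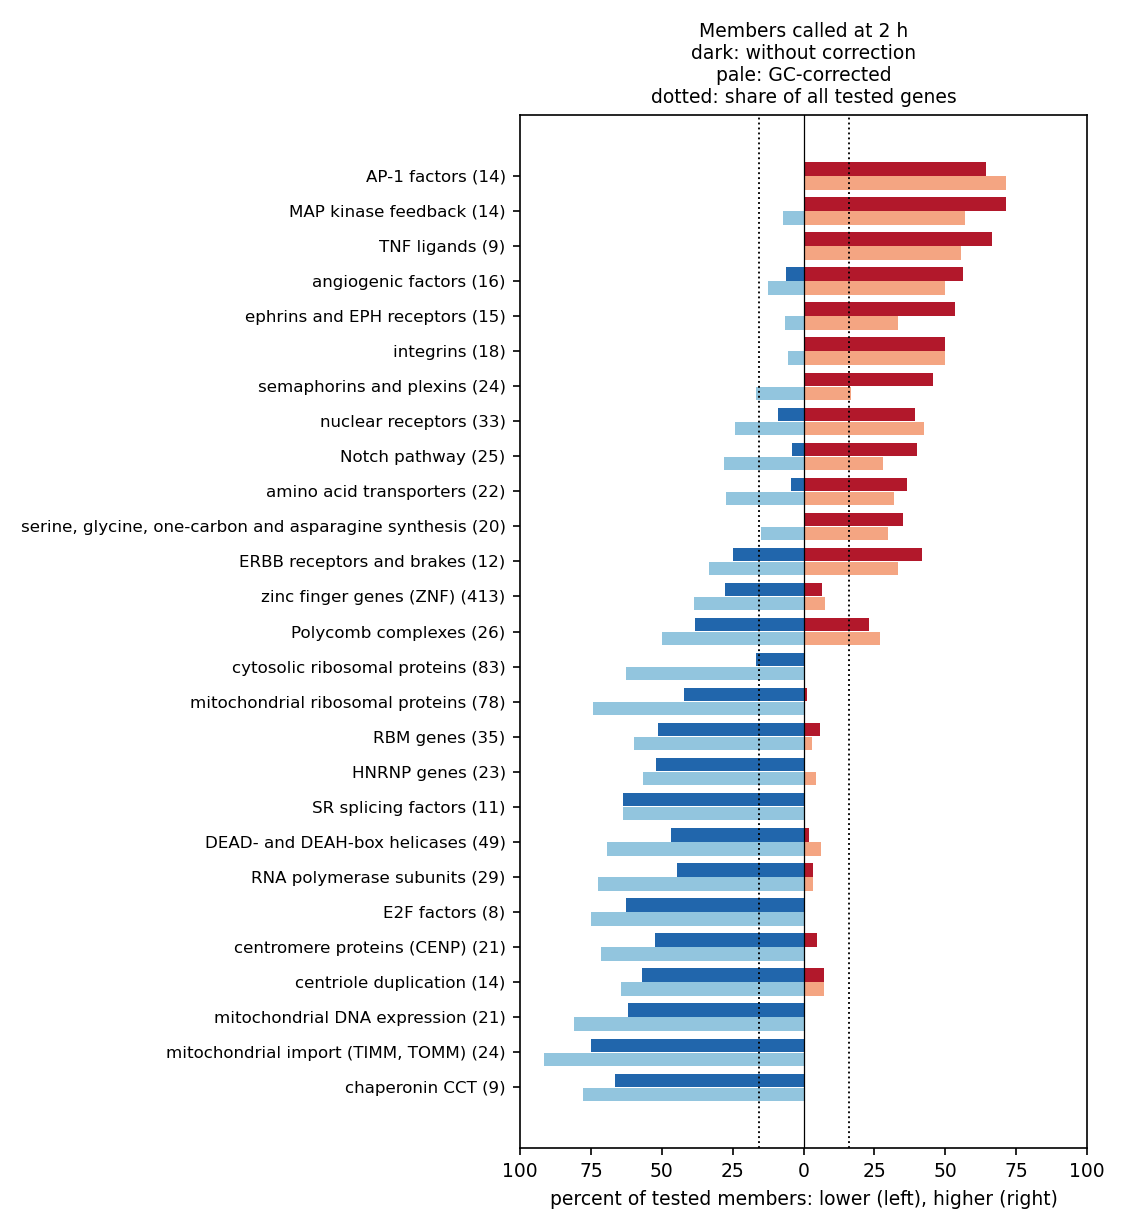
Percent of tested members called lower (left of 0) and higher (right of 0) at 2 h in 27 gene families and lists, with the number tested in parentheses; dark bars are without and pale bars with the GC correction, and dotted lines mark the shares among all tested genes without it (15.8% and 15.9%). Bars of signalling groups point right and those of RNA, mitochondrial and division groups point left, and the pale bars lie farther left in most rows. With the correction the shares among all genes, not drawn, were 28.1% lower and 14.2% higher.

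Amino acid transporters had 8 of 22 members higher and 1 lower (7 and 6 after the GC correction). SLC7A11, the cystine importer, stood at 65.4 and 66.6 CPM, then 121 and 174 CPM (log2 1.16, SE 0.14), and SLC6A9, a glycine transporter (log2 1.23, SE 0.14), SLC1A4 (log2 1.07, SE 0.12) and SLC7A8 (log2 0.96, SE 0.14) rose too. Enzymes of serine, glycine, one-carbon and asparagine synthesis had 7 of 20 higher and 0 lower, such as CTH (log2 0.59, SE 0.12), with counts of 6 and 3 after the correction and 6 and 1 without 2 h replicate 1. In the pathway of the aryl hydrocarbon receptor, a sensor of planar ring compounds, 5 of 11 were higher and 0 lower (5 and 1 after the correction). CYP1B1 went from 341 and 328 CPM to 698 and 794 CPM (log2 1.16, SE 0.10) and TIPARP from 139 and 128 CPM to 205 and 232 CPM (log2 0.71, SE 0.10).

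A list of salt-inducible kinases and regulators of AMPK and of the growth kinase mTOR had 6 of 25 tested members higher and 4 lower. The share lower was close to the 15.8% of all genes. After the GC correction the counts were 5 and 6, and without 2 h replicate 1 they were 5 and 2. PRR5L went from 1.5 and 1.39 CPM to 11.1 and 8.25 CPM (log2 2.74, SE 0.21), while its relative PRR5, also a partner of mTOR complex 2, fell from 17.7 and 21.9 CPM to 9.89 and 10.5 CPM (log2 -0.95, SE 0.15). ULK1, the kinase that starts autophagy, rose from 29 and 30.1 CPM to 113 and 92.4 CPM (log2 1.80, SE 0.13). The sestrins were split likewise, with SESN3 higher (log2 1.64, SE 0.48) and SESN1 lower (log2 -0.56, SE 0.19).

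Some groups of mitochondrial genes had many members lower and others did not. The import machinery of TIMM and TOMM proteins had 18 of 24 members lower and 0 higher (median log2 -0.40), and 22 and 0 after the GC correction. TIMM8A went from 37.8 and 41.0 CPM to 21.9 and 23.7 CPM (log2 -0.79, SE 0.12), and TIMM17A fell by log2 -0.68 (SE 0.10). The list of factors that read and copy mitochondrial DNA had 13 of 21 lower and 0 higher (median log2 -0.49, and 17 and 0 after the correction), with the transcription factor TFB2M at 102 and 101 CPM, then 53.1 and 59.4 CPM (log2 -0.85, SE 0.11), and MTERF3 at 110 and 105 CPM, then 54.2 and 64.7 CPM (log2 -0.86, SE 0.11). Mitochondrial ribosomal proteins had 33 of 78 lower and 1, MRPL34, higher (log2 0.37, SE 0.12). After the GC correction 58 were lower and 0 higher, and MRPL34 was not called (edgeR adjusted p = 0.0713). Enzymes of the tricarboxylic acid cycle had 3 of 20 lower and those of coenzyme Q synthesis 2 of 13 lower and 1 higher, near the share of all genes (9 lower, and 3 lower and 2 higher, after the correction; 2 lower, and 1 lower and 1 higher, without 2 h replicate 1). Of 14 genes of mitochondrial dynamics and mitophagy 0 were lower and 1 higher (5 and 2 after the correction, 1 and 0 without 2 h replicate 1). Of the 13 messengers that mitochondrial DNA itself encodes, 1, MT-CO2, was called lower (log2 -0.25, SE 0.09) and 0 higher (2 and 0 after the correction, 0 and 0 without 2 h replicate 1).

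Several groups of genes that make and process RNA had many members lower, and others did not. Genes of mRNA turnover had 7 of 30 higher and 3 lower, with a median log2 of 0.01 (8 and 6 after the GC correction). Those of cleavage and polyadenylation had 4 of 20 lower and 0 higher, near the share of all genes (10 and 3 after the correction). Subunits of the RNA polymerases had 13 of 29 lower and 1 higher (21 and 1 after the GC correction), and those lower that are named lie in polymerases I and III: POLR1E fell from 73.2 and 68.1 CPM to 35.0 and 35.9 CPM (log2 -1, SE 0.11), with POLR1B (log2 -0.87, SE 0.10), POLR3G (log2 -0.84, SE 0.14) and POLR3F (log2 -0.78, SE 0.13). POLR2A, the large subunit of polymerase II, was the one that rose (log2 0.61, SE 0.09, and 0.33 after the GC correction). DEAD- and DEAH-box helicases had 23 of 49 lower and 1 higher, 34 and 3 after the correction, and 18 and 2 without 2 h replicate 1. HNRNP genes had 12 of 23 lower and 0 higher, 13 and 1 after the correction, and 8 and 1 without that library. SR splicing factors had 7 of 11 lower and 0 higher by all 3 counts (without correction, with it, and without 2 h replicate 1), with SRSF7 at 300 and 282 CPM, then 145 and 178 CPM (log2 -0.84, SE 0.11). In nonsense-mediated decay 7 of 15 were lower and 0 higher (10 and 0 after the correction), among them UPF3B (log2 -0.83, SE 0.15).

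Translation and protein folding followed the same direction less evenly. Initiation factors had 20 of 54 lower and 2 higher (30 and 1 after the GC correction, 19 and 0 without 2 h replicate 1), with EIF5 at 713 and 671 CPM, then 358 and 437 CPM (log2 -0.80, SE 0.11). The 2 higher were EIF4EBP1 (log2 0.36, SE 0.10), a brake on cap binding, and EIF1B (log2 0.35, SE 0.11), neither of them called without 2 h replicate 1. EIF4EBP1 was at log2 -0.01 after the GC correction. Of 83 cytosolic ribosomal protein genes 14 were lower and 0 higher, a share close to that of all genes. The count was 52 lower after the GC correction (median log2 -0.28, against -0.21 without it) and 43 lower without 2 h replicate 1. The chaperonin CCT, which folds actin and tubulin, had 6 of 9 subunits lower and 0 higher, and 7 lower after the correction.

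Families of centromere and centriole genes had more members lower than higher. CENP genes had 11 of 21 lower and 1 higher (15 and 0 after the GC correction). CENPE, a kinesin of the kinetochore, stood at 50.4 and 42.2 CPM in the untreated cells, against 14.4 and 32.7 CPM at 2 h (log2 -0.98, SE 0.25), the 2 h libraries lying far apart. The member called higher, CENPV (log2 1.15, SE 0.41), was not called after the GC correction (edgeR adjusted p = 0.0745). E2F factors, which drive and then end S phase genes, had 5 of 8 lower and 0 higher (6 and 0 after the correction), E2F8 and E2F2 (log2 -1.16, SE 0.23) with the largest changes. Centriole duplication genes had 8 of 14 lower, such as CEP152 (log2 -1.27, SE 0.16) and STIL (log2 -0.67, SE 0.12), and 1, CEP120, higher, with counts of 9 and 1 after the correction and 4 and 1 without 2 h replicate 1. Kinesins were mixed, with 10 of 32 lower and 6 higher (15 and 4 after the correction, 6 and 5 without 2 h replicate 1). Among the latter KIF21B, a kinesin of neurons and lymphocytes, went from 2.18 and 2.26 CPM to 9.43 and 7.5 CPM (log2 1.93, SE 0.19).

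Zinc finger genes, the largest family of transcription factors, leaned to falls. Of 413 tested genes with a ZNF symbol, 115 were lower and 27 higher (27.8% and 6.54%), and 159 and 31 after the GC correction. Without 2 h replicate 1, 73 were lower and 31 higher. ZNF165 fell from 31.0 and 28.6 CPM to 7.63 and 12.4 CPM (log2 -1.57, SE 0.19), ZNF215 fell by log2 -1.52 (SE 0.20) and ZNF695 by log2 -1.38 (SE 0.17). Against these, ZNF469 and ZNF467 (log2 2.07, SE 0.35) were among the largest rises. The low median GC content of the family, 43.6%, is to be read beside these counts.

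KMT and SETD methyltransferases had 7 of 17 lower and 0 higher, 14 and 0 after the GC correction, with SETD1B (log2 -0.63, SE 0.12) and SETD2 (log2 -0.59, SE 0.11) among them. Polycomb genes had 10 of 26 lower and 6 higher (13 and 7 after the correction). RNF2, the catalytic subunit of complex 1 (log2 -0.84, SE 0.13), PCGF6 (log2 -0.69, SE 0.14) and MTF2 (log2 -0.62, SE 0.13) fell, and CBX7, a reader subunit, rose from 8.06 and 7.86 CPM to 19.8 and 14.8 CPM (log2 1.12, SE 0.17). The demethylase KDM2B fell (log2 -0.89, SE 0.11) and KDM6B rose (log2 0.70, SE 0.12).

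Noncoding RNAs rose more often than they fell. Among 1006 intergenic noncoding RNAs 14.1% were higher and 2.98% lower, and among 1374 antisense RNAs 11.6% and 2.40%, against 16.6% and 18.1% of 13669 coding genes. Among those with a LINC symbol 44 of 259 were higher and 5 lower, against 45 and 8 after the GC correction and 25 and 4 without 2 h replicate 1. Among those with an AS suffix 60 of 395 were higher and 13 lower, against 59 and 27, and 35 and 7. Direction also went with abundance over all tested genes, which were not split by type. Below a mean of 1 CPM, 10.3% of 3252 genes were higher and 1.41% lower. From 2 to 5 CPM the shares were 24.2% and 6.52%, from 20 to 50 CPM 15.7% and 24.2%, and from 100 to 1000 CPM 11.8% and 26%. Of 79 genes at or above 1000 CPM 9 were higher and 18 lower. Without strand information in the sources used here, reads of an antisense RNA and of its partner cannot be told apart.

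Some genes were seen at 2 h and not before. In all, 52 genes had 0 counts in both controls and at least 3 in both 2 h libraries, and 7 genes had the reverse. C21orf91-OT1 had 19 and 25 counts at 2 h and FOXJ1, the master factor of motile cilia, had 22 and 7. Set against the 3 counts that a 0 allows over the 2 controls, the observed 2 h level of C21orf91-OT1 was 14.2-fold and that of FOXJ1 9.39-fold. These ratios cover the counting error of the controls only, not that of the 2 h counts or the spread between libraries. The genes were also chosen for having 0 counts in both controls. The number of genes with at least 1 count was 21168 and 20977 before heme, against 21598 and 21783 after 2 h.

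GC content went with direction across the whole range. In the poorest of 10 equal GC bins (26.5% to 38.6%) 5.15% were higher and 28.3% lower, and in the richest (61.5% to 76.2%) 28.7% were higher and 5.05% lower. Without 2 h replicate 1 these shares were 7.45% and 16.9%, and 16.3% and 4.80%, so the direction remained and its size shrank. Without 2 h replicate 2 they were 3.72% and 46.7%, and 34.6% and 5.05%. Gene span went with direction as well. Of the 1042 well expressed coding genes with the longest spans (157 to 1784 kb), 27% were higher and 11.6% lower, while in the other 9 bins of span between 12.5% and 17.2% were higher and between 17.9% and 28.9% lower. After the GC correction 313 of these long genes were higher and 219 lower, whereas in each of the other bins those called lower outnumbered those higher. NAV2, which covers 19350724 to 20121598 on chromosome 11, is an example of a long gene that rose. In the bin of shortest spans (0.207 to 6.29 kb) 170 genes were higher and 186 lower.

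Promoter motifs were counted in the 300-base RefSeq windows of the 8431 tested genes that have exactly 1 window in the table. A G-quadruplex motif, here at least 4 runs of 3 or more G with loops of 1 to 7 bases on either strand, was present in 33.6% of them, in 40.6% of genes called higher and in 28.8% of genes called lower. Genes with the motif also had GC-richer transcripts (median 51.2% against 47.3%). Within the GC-richest of 5 equal bins of transcripts, 29% of genes with the motif were higher and 23.8% of those without. In the GC-poorest bin the shares were 4.13% and 5.65%. In the bins between, from poorer to richer, they were 10.7% and 9.44%, 16.4% and 13.5%, and 22.5% and 18.5%. Split by promoter GC content instead, genes with the motif were more often higher in each of 5 bins. The shares there ran from 14.8% against 14% in the poorest bin to 20.4% against 16.2% in the richest. This split does not hold transcript GC content equal. Median transcript GC content with and without the motif was 48% and 45.4% in the poorest bin. It was 53.2% and 51.6% in the richest bin, and 48% and 48.2% in the middle bin. The calls counted here are without the GC correction. Among genes with a mean of at least 2 CPM that changed at least 2-fold, the motif was in 35.6% of 160 promoters of genes that rose and 29.3% of 58 that fell, against 34.3% of all 6835.

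Other motifs differed more between the strong responders and the rest. CCGGAAG on either strand, the ETS core common in housekeeping promoters, was in 22.8% of the 6835 promoters, in 1.88% of those of the 160 strong rises and in 12.1% of those of the 58 strong falls. TGAGTCA or its reverse TGACTCA was in 2.96% of all, 7.5% of the strong rises and 1.72% of the strong falls. TATAAA on the gene's strand was in 3.66%, 11.9% and 5.17% in the same order, and FOSB above is one example. CCAAT was in 38.2%, 31.9% and 43.1%, with CCNF and HJURP among the last. CACGTG, the E-box that MYC binds, was in 10.5%, 6.88% and 6.90%. TGACG, marked above in the NR4A3 and FOSB windows, was in 36.5%, 30.6% and 27.6%, so it was less frequent in the strong rises than in all. Among all 22112 RefSeq promoters, CCGGAAG was in 10.7%, the AP-1 letters in 5.12% and TATAAA in 8.24%. The groups were not matched for abundance. Rises of at least 2-fold were called in 9.24% of tested genes from 2 to 5 CPM and in 0.735% of those from 100 to 1000 CPM. CCGGAAG was in 19.9% of the windows of all tested genes, against 22.8% of those at 2 CPM or more. Whether abundance accounts for any of these gaps was not tested. All these shares are counts of letters in a fixed window and show no binding.

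**Figure D5:**
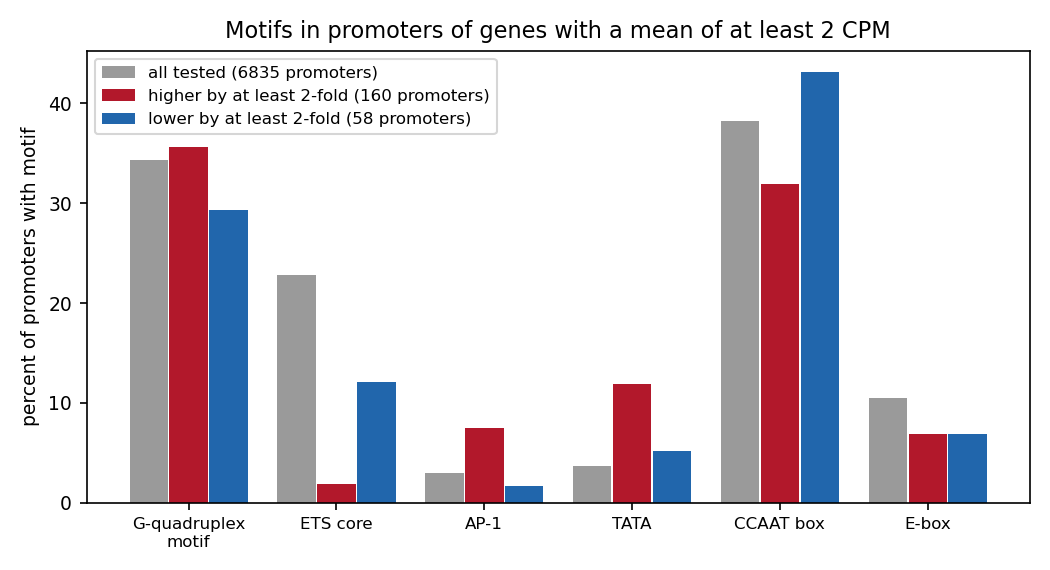
Percent of promoter windows that hold each of 6 motifs (bars, from 0) among all tested genes with a mean of at least 2 CPM (grey, 6835 windows) and those higher (red, 160) or lower (blue, 58) by at least 2-fold. The ETS core is the motif with the widest gap, at 22.8% of all windows and 1.88% of those of the strong rises, and the AP-1 and TATA motifs are more frequent in the strong rises. The groups are not matched for abundance.

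Markers of other cell types were looked at in the same libraries. Of 3 T cell markers and 5 red cell markers none had enough counts to be tested, and their summed levels lay at or below 0.174 CPM in each library. The 3 endothelial markers summed to 20.5 and 19.9 CPM in the untreated cells, against 40.4 and 32.9 CPM at 2 h, nearly all of it from PECAM1 (20.1 and 19.8, then 40.1 and 32.6 CPM, log2 0.86, SE 0.13), while VWF had at most 4 counts. The 5 fibroblast markers went from 26.6 and 29.2 CPM to 48.5 and 41.5 CPM through COL1A1 (log2 0.70, SE 0.14), with COL1A2 and DCN at 3 counts or fewer. Of the 5 myeloid markers CD14 (log2 1.87, SE 0.36) and CSF1R (log2 0.54, SE 0.16) were called higher, while PTPRC had at most 4 counts and ITGAM at most 4. The 4 neuronal or neuroendocrine markers summed to 17.5 and 17 CPM before heme and 24 and 19.5 CPM after 2 h, with ENO2 called higher (log2 0.71, SE 0.20, edgeR adjusted p = 0.0135), SYP at or below 0.797 CPM and CHGA at 4 counts or fewer. The part of other cells in these results was not tested beyond these levels.

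Some named calls rested on 1 library. Without 2 h replicate 1, EGF, EPGN, LRIG2, MRPL34, NR1H3, NR6A1, SESN1, SESN3, SREBF1 and TNFRSF9 were not called by edgeR, besides HPX, MT-CO2, EIF1B and EIF4EBP1. Without 2 h replicate 2, ABCA1, CENPV, CEP120, EGF and EREG were not called. Without control replicate 1 the genes HSP90AB1, HSPA5, NRIP1, PPARD and TGFA lost their call, and without control replicate 2 the genes ABCA1, AREG, CTH, JAG2, PLAU and PPARD did. Among the genes lost without either control in turn were also CENPV, CEP120, EGF, EIF1B, EIF4EBP1, EPGN, HPX, LRIG2, MRPL34, MT-CO2, NR1H3, NR6A1, SESN1, SREBF1 and TNFRSF9, and SESN3 was lost without control replicate 1.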

How the data were processed

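RNA from 6 PC3 libraries, 2 per group, was sequenced after extraction with Trizol and a TruSeq kit, per the labels' protocols. The authors deposited 1 file per library with raw read counts of each gene symbol. Trimmomatic, STAR, SAMtools and hg38 are named, per the submitters' processing notes, while annotation and strand setting were not given in those sources. Overlapping genes and near-identical copies are therefore uncertain. The 5 summary lines of each table, such as reads in no gene (5.48% to 6.88%), were left out.

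Genes passing edgeR's filterByExpr (minimum count 10) were fitted with all 6 libraries in R 4.3.3 with edgeR 4.0.16 (TMM, quasi-likelihood test, 3 residual degrees of freedom), and p-values were adjusted by Benjamini-Hochberg over all 16209 genes. A call is an adjusted p under 0.05. The deposited counts were also tested with DESeq2 1.42.0, with other scaling, filters and samples, with the replicate number as a block, against a 1.5-fold change, without each library, and with a loess correction (span 0.3) of each library for transcript GC content and length from GENCODE 29. Promoter windows came from RefSeq. In simulated counts without any GC slope, 67 genes were changed 1.5-fold, 67 2-fold and 66 4-fold, all above 2 CPM in the controls. The test recovered 68.7% of genes changed 1.5-fold and 100% of those changed 2-fold, with 13 false calls among 16009 unchanged genes. Far more genes were called in the data, and 1 library there had a steep GC slope, so these figures do not measure the accuracy of the calls above.

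Named genes are the study's own (HMOX1, MYC, ALAS1, HPX), the 25 largest rises and falls among called genes whose groups did not overlap and whose mean reached 2 CPM, the 10 largest gains and losses in CPM, genes at 0 in the controls, up to 4 called members per direction of each of 66 families and 44 lists, and cell type markers. A few genes under these rules are not reported here. NR1H3, SREBF1 and other members named to complete a small count follow from those lists. Members and lists were chosen with earlier results of these data known.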

Additional observations from a re-analysis of the deposited data

How the results depend on the processing

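Against 5136 genes called, DESeq2, its size factors in edgeR, no filter and only the compared groups in the fit gave 4937 to 5313, and the GC and length correction gave 6799. Requiring a change beyond 1.5-fold left 533 genes, 476 of them with at least 2-fold change and 79.4% of those higher. The GC and length correction gave 72.9% higher among changes of at least 2-fold, against 82.9%, and put EIF4EBP1 at log2 -0.01. Leaving out 1 library at a time gave 2321 (without control replicate 1) to 6254 (without 2 h replicate 2) genes called, 665 to 1353 with at least 2-fold change, and 70.4% to 84.4% of those higher. The same replicate numbers did not deviate together across groups (correlations -0.091, 0.065 and -0.016), and the fit with the replicate number as a block called 4809 genes, 995 with at least 2-fold change, 82.7% of them higher. Of 604 named genes, 389 kept direction and call without control replicate 1, 452 without control replicate 2, 477 without 2 h replicate 1 and 564 without 2 h replicate 2. With 2 libraries per group the precision of small changes is limited.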
